A study of Arabidopsis thaliana with 12 samples.

Results

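The REVEILLE (*RVE*) genes of *Arabidopsis* encode MYB-like transcription factors with a single DNA-binding repeat. The members described are the 9 gene models *RVE1* to *RVE7*, *RVE7-like* and *RVE8*, taken by locus from a count table of 26245 models, and all 9 were found. The study asked how transcripts respond when the RVE8 protein is activated in the afternoon. Whole seedlings 7 days old, grown in 12 hr light and 12 hr dark on 3% sucrose, were treated 4 hr after lights on (ZT4) and harvested 4 hr later (ZT8). Their messenger RNA was sequenced in 12 libraries, 3 from each of 4 groups, with about 30 seedlings pooled in each library.

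All 4 groups carry the *rve8-1* mutation, so no group is wild-type. The line called *rve8* holds *rve8-1* alone and *RVE8:GR* is *rve8-1 RVE8::RVE8:GR*, in which the native *RVE8* promoter drives a fusion of RVE8 with the glucocorticoid receptor. The receptor part makes the activity of the protein depend on dexamethasone (DEX), a synthetic steroid. Each line was given DEX or a mock solution of the solvent, which makes the groups *RVE8:GR* + DEX, *RVE8:GR* + mock, *rve8* + DEX and *rve8* + mock. The labels give 30 mM DEX and the study's methods 30 µM. The transgene was put into *rve8-1* plants with a luciferase reporter and single-insertion transformants were selected, and the study's methods speak of the sequenced plants as a single transgenic line. The question for the family is how each *RVE* transcript differs between the lines and with DEX at this time of day.

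RVE proteins belong to the same family as CCA1 and LHY, the morning repressors of the plant clock. RVE8, RVE4 and RVE6 bind the evening element (EE), a short promoter sequence of evening genes, and activate those genes, while CCA1 and LHY repress through the same element. RVE1 promotes auxin synthesis and seedling growth and takes part in seed dormancy, RVE2 is also known as CIR1 and RVE7 as EPR1, and RVE3 and RVE5 are further members of the RVE8 clade. In seedlings most of these transcripts cycle with a peak near dawn, so a harvest at ZT8 samples the day after that peak.

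The family falls into a pair of clades. A signature of the DNA-binding domain came in one coded form, that of CCA1 and LHY, in 4 members (*RVE1*, *RVE2*, *RVE7*, *RVE7-like*) and in another form in 5 (*RVE3*, *RVE4*, *RVE5*, *RVE6*, *RVE8*). The coding strand around it is shown for the members on which the results turn, from the TAIR10.1 genome, with the bases that code for the signature in capitals.
RVE1: cgaAGCCATGCTCAGAAGTTTTTCtctaag
RVE7: cgaAGCCATGCTCAAAAGTTCTTCtccaag
RVE4: aggAGCCATGCCCAAAAATACTTTctaaag
RVE8: aggAGTCATGCTCAAAAATACTTTctcaag
The *RVE1* bases are chr5:5691557-5691577, those of *RVE7* chr1:6307034-6307054, those of *RVE4* chr5:649761-649781 and those of *RVE8* chr3:2947070-2947090, each within 1 coding exon. *RVE1* and *RVE7* are on the reverse strand and *RVE4* and *RVE8* on the forward strand.

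Over whole proteins translated from TAIR10.1, RVE4 and RVE8 were identical at 72.8% of 279 aligned residues and RVE3 and RVE5 at 67.3% of 275. RVE1 and RVE2 matched at 57.2% of 276 aligned residues. RVE1 and RVE7 matched at 43.1% of 327 and RVE2 and RVE7 at 43.6% of 280, close to the share for RVE1 and RVE8 from different clades, 43.1% of 283. Within the RVE8 clade RVE3 matched RVE8 at 56.3% of 261 residues and RVE6 at 56.1% of 289.

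*RVE7* (AT1G18330, chromosome 1, 6305814 to 6308010, reverse strand) and *RVE7-like* (AT3G10113, chromosome 3, 3117896 to 3119391, reverse strand) are near copies, which limits what a 50-base read can tell. Their coding parts could be aligned over 956 bases, of which 954 were identical, and 75 further bases of *RVE7* are missing in *RVE7-like*. The 2 differing places are shown in capitals, first in *RVE7* and then in *RVE7-like*, on the coding strand.
RVE7, chr1:6307181-6307210: ctttatggtcgtggTtggcgtcaaatccaa
RVE7-like, chr3:3119028-3119057: ctttatggtcgtggGtggcgtcaaatccaa
RVE7, chr1:6306367-6306396: gagaacttggagaaAagtgcagagccgata
RVE7-like, chr3:3118214-3118243: gagaacttggagaaGagtgcagagccgata
Of the 50-base stretches of the *RVE7* cDNA, 51.9% (905 of 1744) also occur in the *RVE7-like* cDNA, where they are 81.6% of 1109. How reads matching both were counted is not stated, so the split of counts between these 2 models is uncertain. The upstream 1500 bases of the 2 genes share 0 of 1451 stretches.

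The EE was searched for on both strands of the 1500 bases upstream of each start codon, in a short form (AAATATCT) and a long form (AAAATATCT) that contains the short one. *RVE7* was the single member with a match, and it held 2, both of the long form. They are printed 5′ to 3′ on the strand that carries them with the short EE in capitals, the first on the strand of the gene and the second on the opposite strand.
RVE7, chr1:6308285-6308292, 566 bases from the start codon: taatcacaaaaAAATATCTtcttcataatt
RVE7, chr1:6308553-6308560, 834 bases from the start codon: attcgatttcaAAATATCTctttagtctta
Both lie upstream of the annotated transcript, by 274 and 542 bases. Of 23810 models with such a promoter, 20.6% had a short EE and 9.76% a long EE. The match in 1 of 9 members is given as a description.

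Libraries held 15975840 to 21713130 counts, and 3 counts in a library correspond to 0.138 to 0.188 CPM, the counts scaled to a fixed library total. CPM here include TMM factors, which correct for library composition and were 0.959 to 1.05. A model was tested when at least 3 libraries reached 1 CPM, which left 19961 models. All 9 members passed, but *RVE3* did so through 5 libraries, 3 of them *rve8* + DEX, and *RVE8* mainly through the *RVE8:GR* libraries. Differences were tested with edgeR's quasi-likelihood test on all 12 libraries and called at a Benjamini-Hochberg adjusted p under 0.01. The leaf markers *RBCS1A* and *LHCB2.1* summed to 16911 to 23625 CPM and the root markers *PYK10* and *IRT1* to 1467 to 2046 CPM. Of 5 markers of organs that seedlings lack, the flower and pollen genes *AP1*, *AP3* and *LAT52* were at 0 in 7, 4 and 9 of 12 libraries, with at most 4 counts. The seed storage genes *CRA1* and *CRU3* were present in all 12 libraries, at 33.0 to 327 and 3.70 to 161 CPM, both highest in *rve8* + DEX replicate 2. In whole seedlings, fewer cells of a type and less RNA per cell cannot be told apart.

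*RVE8* (AT3G09600, chromosome 3, 2946239 to 2949017, forward strand), the mutated gene and the source of the transgene, was measured first as a check on the labels. In *rve8* its level was 1.04, 1.33 and 0.600 CPM after DEX and 2.06, 0.605 and 0.711 CPM after mock, from 10 to 35 counts. In *RVE8:GR* it was 5.19, 5.51 and 6.30 CPM after DEX and 9.75, 8.75 and 8.34 CPM after mock. Every *RVE8:GR* library lay above every *rve8* library, as the labels require. The transgene carries the genomic fragment chr3:2945793-2948268 of 2476 bases, from 666 bases before the start codon to 2 bases before the end of the annotated coding part, so these counts pool transgene and mutated gene and leave the 3′ UTR of the model out of the transgene.

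The difference of *RVE8* between the lines was 2.52 ± 0.305 (log2, SE) after DEX and 2.98 ± 0.293 after mock, or 5.75-fold and 7.89-fold (edgeR adjusted p = 1.8e-05 and 6.3e-06). Without *rve8* + mock replicate 1, the library at 2.06 CPM, the mock difference was 3.75. Within *RVE8:GR* the DEX libraries were all below the mock libraries, with a difference of -0.66 ± 0.231 that did not pass the threshold (edgeR adjusted p = 0.103). It passed in a fit of these 2 groups alone (edgeR adjusted p = 0.00621). In *rve8* the DEX difference of *RVE8* was -0.21 ± 0.389, and the groups overlapped.

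**Figure D1:**
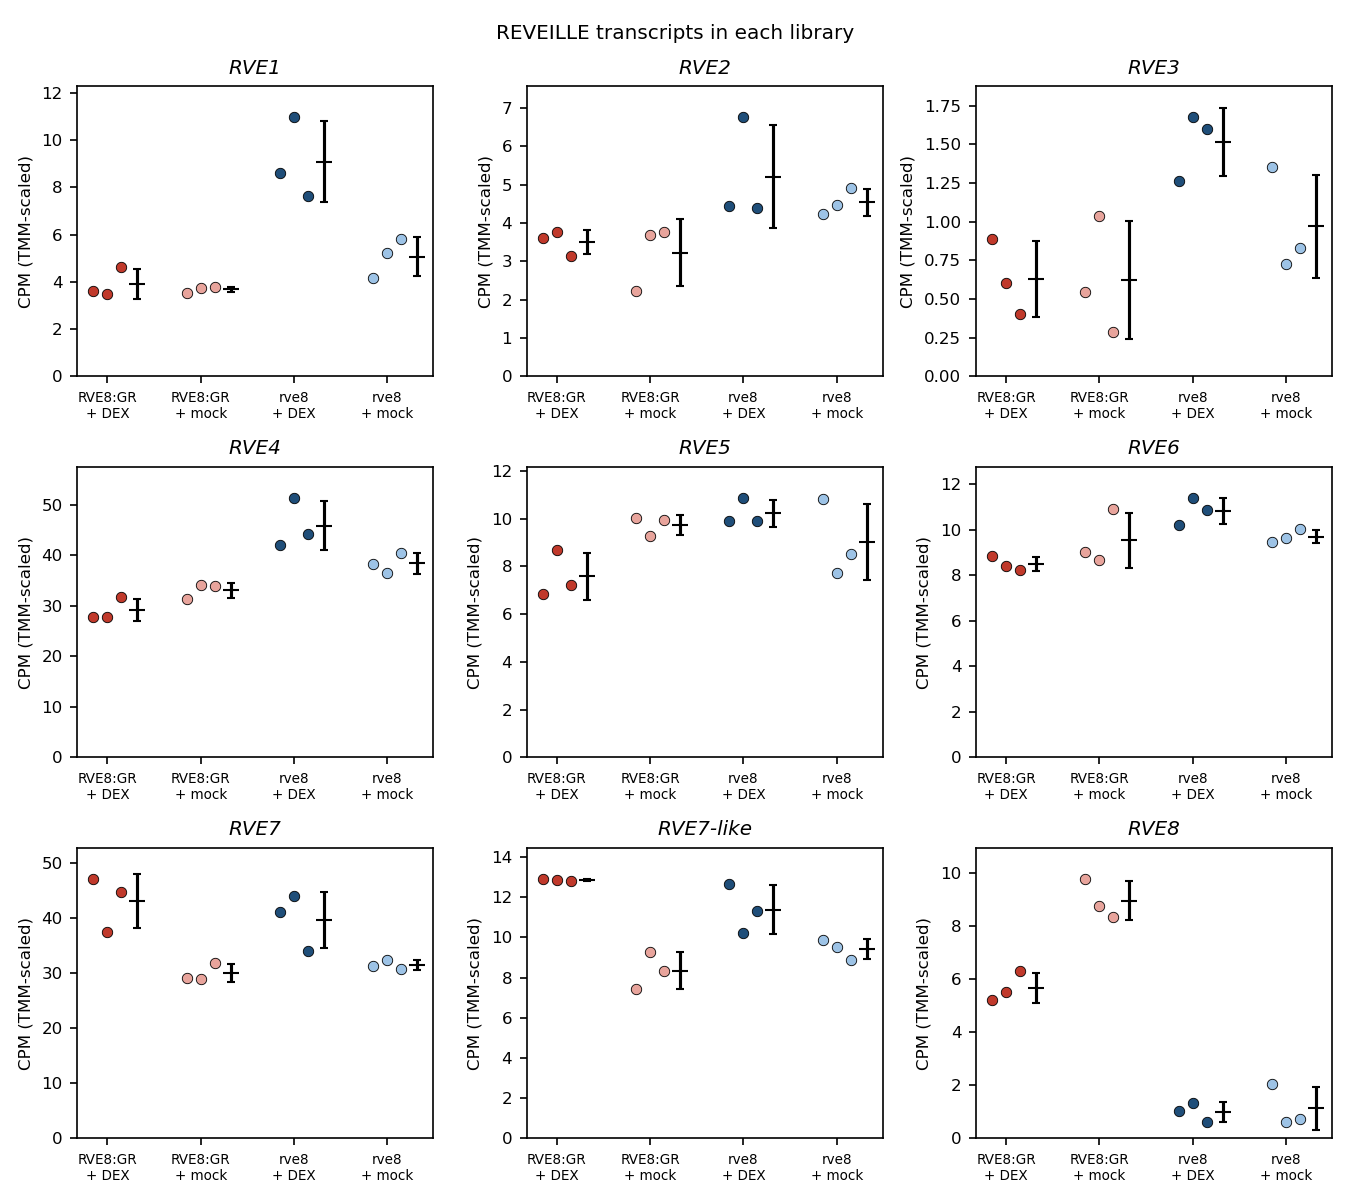
CPM (TMM-scaled) of each member in every library, by group, with each vertical axis starting at 0. Points are libraries (replicates 1 to 3 from left to right) and the black bars are the mean ± SD of 3. *RVE1* and *RVE4* are highest in *rve8* + DEX, *RVE7* and *RVE7-like* are higher after DEX in both lines, and *RVE8* separates the lines.

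*RVE4*, the nearest relative of *RVE8* and an activator of evening genes, was lower in *RVE8:GR* than in *rve8* after DEX. It (AT5G02840) maps to chromosome 5 (648648 to 651979, forward strand). Its level was 27.9, 27.8 and 31.7 CPM in *RVE8:GR* + DEX against 42.0, 51.3 and 44.1 CPM in *rve8* + DEX. After mock it was 31.3, 34.0 and 33.8 CPM in *RVE8:GR* and 38.2, 36.5 and 40.5 CPM in *rve8*, and the *RVE8:GR* libraries after DEX and mock overlapped. The groups did not overlap between the lines under either treatment.

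After DEX *RVE4* was 1.58-fold lower in *RVE8:GR* (log2 difference -0.66 ± 0.0831, edgeR adjusted p = 1.3e-05). Leaving out each library in turn kept this between -0.72 and -0.57, and every such fit passed. After mock the difference was -0.22 ± 0.0837 (edgeR adjusted p = 0.14). The response to DEX was -0.18 ± 0.0842 in *RVE8:GR* and 0.25 ± 0.0824 in *rve8*, neither of which passed. The difference between those responses was -0.44 ± 0.118, the smallest adjusted p of the 9 members for that term but above the threshold (edgeR adjusted p = 0.0456).

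*RVE6*, which shares clock functions with *RVE4* and *RVE8*, varied little between libraries. It (AT5G52660) maps to chromosome 5 (21359001 to 21362273, reverse strand). Its 12 libraries ran from 8.25 to 11.4 CPM, the narrowest relative range of the members. In *RVE8:GR* + DEX it was 8.84, 8.39 and 8.25 CPM and in *rve8* + DEX 10.2, 11.4 and 10.9 CPM. These groups did not overlap, and the difference of -0.35 ± 0.117 did not pass (edgeR adjusted p = 0.0797).

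*RVE5* showed a like difference with more spread. It (AT4G01280) maps to chromosome 4 (535241 to 537554, forward strand). It was 6.83, 8.71 and 7.22 CPM in *RVE8:GR* + DEX and 9.89, 10.9 and 9.90 CPM in *rve8* + DEX, a difference of -0.43 ± 0.135 that did not pass (edgeR adjusted p = 0.0591). Against *RVE8:GR* + mock, at 10.1, 9.27 and 9.94 CPM, the DEX libraries did not overlap either, with a difference of -0.36 ± 0.135 (edgeR adjusted p = 0.13). In *rve8* + mock the 3 libraries spread from 7.75 to 10.8 CPM.

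*RVE3* was close to the limit of detection. It (AT1G01520) maps to chromosome 1 (190408 to 192436, forward strand), and 1.23% of its stretches also occur in another cDNA, that of AT1G01510. The *RVE8:GR* libraries held 5 to 20 counts and the *rve8* libraries 12 to 32. After DEX it was 0.888, 0.602 and 0.401 CPM in *RVE8:GR* and 1.26, 1.68 and 1.60 CPM in *rve8*. The difference of -1.23 ± 0.394 has a 95% interval of -2.05 to -0.41 and did not pass (edgeR adjusted p = 0.0631), while edgeR's exact test put it past the threshold (adjusted p = 0.00926). Since *RVE3* reached 1 CPM in all 3 libraries of *rve8* + DEX alone, the filter kept it through the group where it was high.

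*RVE1*, the regulator of auxin and growth, was higher in *rve8* + DEX than in any other group. It (AT5G17300) maps to chromosome 5 (5690226 to 5692992, reverse strand). In *rve8* it was 8.63, 11.0 and 7.65 CPM after DEX and 4.17, 5.20 and 5.81 CPM after mock. In *RVE8:GR* it was 3.60, 3.47 and 4.64 CPM after DEX and 3.55, 3.73 and 3.77 CPM after mock. The DEX libraries of *rve8* stood above all 9 others.

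*RVE1* rose 1.79-fold with DEX in *rve8* (log2 difference 0.84 ± 0.170, edgeR adjusted p = 0.00226). That call was lost without *rve8* + DEX replicate 2 (0.68, adjusted p = 0.0229), *rve8* + mock replicate 1 (0.72, adjusted p = 0.0162) or *rve8* + mock replicate 2 (0.86, adjusted p = 0.0126), all in edgeR. After DEX *RVE1* was 2.33-fold lower in *RVE8:GR* than in *rve8* (-1.22 ± 0.172, edgeR adjusted p = 4.7e-05), and the difference was -1.36 to -1.07 in the fits without 1 library, all past the threshold. The DEX difference in *RVE8:GR* was 0.08 ± 0.187. The term that compares the DEX responses of the lines was -0.76 ± 0.253 and did not pass (edgeR adjusted p = 0.127), so a difference in response is not shown.

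The library *rve8* + DEX replicate 2 held the highest level of *RVE1*, *RVE2*, *RVE3*, *RVE4*, *RVE5* and *RVE6* among all 12 libraries, and also the highest summed level of the 5 markers of absent organs, 488 CPM. That sum ranged from 52.7 to 488 CPM in *rve8* + DEX, 36.7 to 224 in *rve8* + mock and, in *RVE8:GR*, 135 to 203 after DEX and 194 to 329 after mock. The root markers *PYK10* and *IRT1* summed to 1467 to 1716 CPM with DEX and 1901 to 1991 with mock in *rve8*, without overlap, and to 1690 to 1932 and 1709 to 2046 CPM in *RVE8:GR*. Neither marker was called with DEX in *rve8*, where *PYK10* was at -0.29 ± 0.0730 (edgeR adjusted p = 0.0118) and *IRT1*, with 17 to 181 counts over all libraries, at -2.75 ± 0.804 (edgeR adjusted p = 0.0619). The leaf markers summed to 19861 to 23625 CPM with DEX and 16911 to 20587 with mock in *rve8*, with overlap. In *RVE8:GR* they summed to 19194 to 22066 and 18799 to 20003 CPM. With DEX in *rve8* neither was called, with *RBCS1A* at 0.27 ± 0.0827 (edgeR adjusted p = 0.0353) and *LHCB2.1* at 0.30 ± 0.108 (edgeR adjusted p = 0.0947). The part of any of these marker lists in the rise of *RVE1* and in the other results was not tested. Without *rve8* + DEX replicate 2 the differences between the lines after DEX were -1.07 for *RVE1* and -0.57 for *RVE4*, both still past the threshold.

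*RVE2* (*CIR1*, AT5G37260, chromosome 5, 14751344 to 14753088, reverse strand) passed in no comparison. It was 3.60, 3.75 and 3.15 CPM in *RVE8:GR* + DEX and 4.45, 6.76 and 4.40 CPM in *rve8* + DEX. The difference between the lines was -0.56 ± 0.208 after DEX (edgeR adjusted p = 0.122) and -0.50 ± 0.217 after mock (edgeR adjusted p = 0.191), and under both treatments the lines did not overlap. Its DEX differences were 0.13 ± 0.218 in *RVE8:GR* and 0.19 ± 0.207 in *rve8*, with overlapping groups in both.

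*RVE7* (*EPR1*) rose with DEX in *RVE8:GR*. In that line it was 47.0, 37.5 and 44.6 CPM after DEX and 29.1, 29.0 and 31.8 CPM after mock, a 1.44-fold increase (log2 difference 0.52 ± 0.0935, edgeR adjusted p = 0.00095). In *rve8* it was 41.0, 44.0 and 34.0 CPM after DEX and 31.3, 32.4 and 30.7 CPM after mock. In each line the DEX libraries lay above the mock libraries, and in *rve8* the difference of 0.33 ± 0.0947 did not pass (edgeR adjusted p = 0.0236). Between the lines the DEX libraries overlapped, with a difference of 0.12 ± 0.0921.

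*RVE7-like* gave the same call with less depth. In *RVE8:GR* it was 12.9, 12.9 and 12.8 CPM after DEX and 7.44, 9.27 and 8.34 CPM after mock, a 1.54-fold increase (0.62 ± 0.116, edgeR adjusted p = 0.00133). In *rve8* it was 12.6, 10.2 and 11.3 CPM after DEX and 9.87, 9.50 and 8.89 CPM after mock, with a difference of 0.27 ± 0.118 that did not pass (edgeR adjusted p = 0.138). The DEX responses of the lines differed by 0.19 ± 0.133 for *RVE7* and 0.35 ± 0.166 for *RVE7-like*, and neither passed (edgeR adjusted p = 0.575 and 0.346). The increase in *RVE8:GR* is therefore not shown to differ from the response of *rve8* to DEX alone, for either gene.

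Because of the shared sequence, *RVE7-like* counts need not be independent of those of *RVE7*. They were 23.3% to 34.3% of the *RVE7* counts in every library. With both models summed, the level was 55.9 ± 4.94 CPM with DEX and 38.3 ± 1.81 with mock in *RVE8:GR*, and 51.0 ± 5.00 with DEX and 40.9 ± 1.17 with mock in *rve8* (SD, n = 3). The sum rose with DEX in *RVE8:GR* by 0.55 (edgeR adjusted p = 0.00011) and differed by 0.32 in *rve8* (edgeR adjusted p = 0.0113). The *RVE7* call was lost without *RVE8:GR* + DEX replicate 1 (0.45, edgeR adjusted p = 0.0128) and the *RVE7-like* call without *RVE8:GR* + mock replicate 1 (0.54, edgeR adjusted p = 0.0133).

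Over the family, 2 of 9 members were called with DEX in *RVE8:GR*, both higher, beside 3.43% of all models, 2.07% higher and 1.36% lower. These 2, *RVE7* and *RVE7-like*, share sequence, so their calls need not be independent. Between the lines after DEX 3 members were called, *RVE8* higher through the transgene and *RVE1* and *RVE4* lower, beside 4.22% of all models, 1.89% higher and 2.32% lower (without TMM factors 439 models were higher and 417 lower, against 378 and 464 with them). With DEX in *rve8* 1 member was called, *RVE1*, which was higher, beside 5.53% of all models, 3.96% higher and 1.57% lower. Between the lines after mock 1 was called, *RVE8*, beside 1.72% of all models, 1.31% higher and 0.416% lower. For the contrast of the 2 DEX responses 0 members passed in edgeR or DESeq2, beside 1.19% of all models, 0.24% positive and 0.947% negative, and 4 of the 9 had an unadjusted edgeR p under 0.05. These comparisons share groups, so a library enters several of them.

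**Figure D2:**
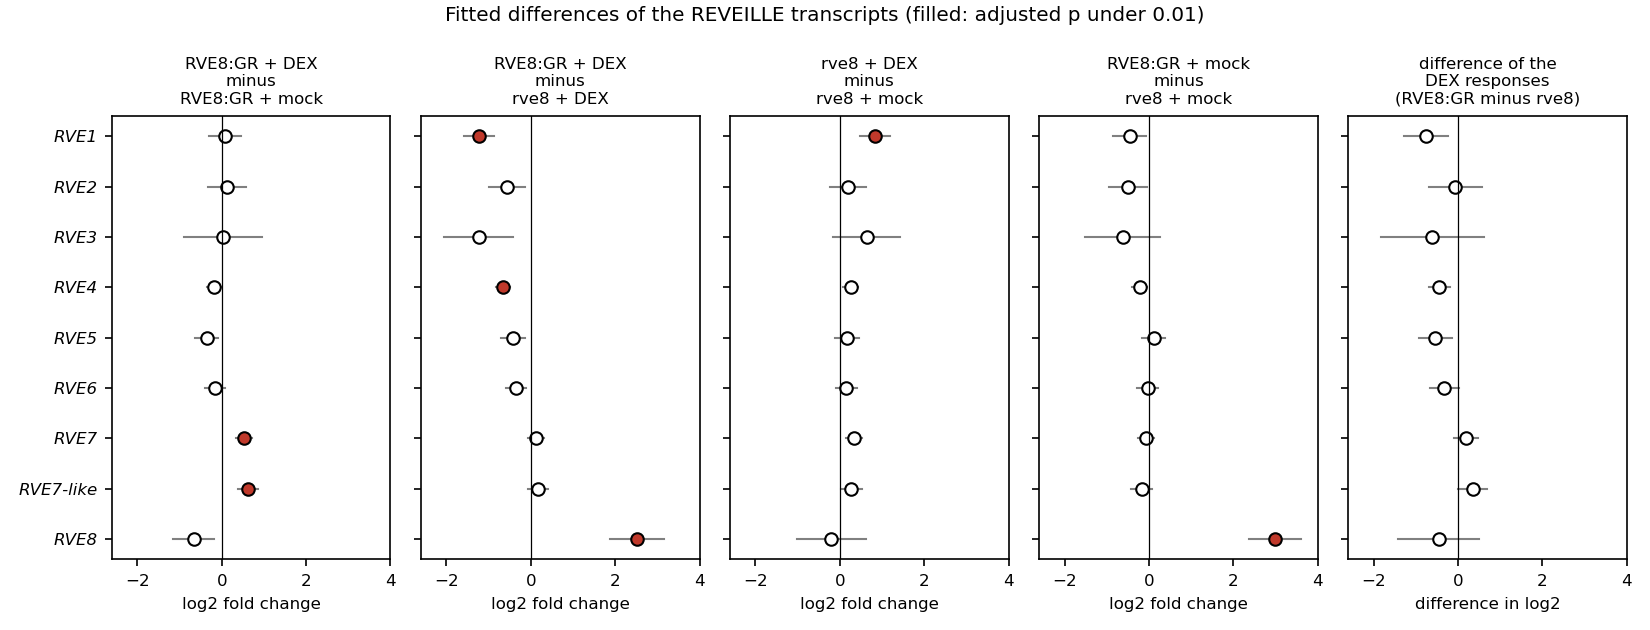
Fitted log2 differences of the 9 members in the 4 comparisons and in the contrast of the DEX responses, with 95% intervals as horizontal lines. Filled circles have an edgeR adjusted p under 0.01. After DEX, 6 of the 9 members are lower in *RVE8:GR* than in *rve8*, with *RVE8* far to the right through the transgene.

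After DEX the ranges of the 2 lines did not overlap for 8 of the 9 members, 6 of them lower in *RVE8:GR*, and 26.6% of all models tested had ranges that did not overlap. The 8 include *RVE8*, set apart by the transgene, and *RVE3*, which the filter kept mainly through *rve8* + DEX, where it was high. The medians of the members include both genes too. The median log2 difference of the members was -0.43, against 0.01 for all models. In *rve8*, 8 of 9 members had positive DEX differences, with a median of 0.25 against -0.01. In that comparison 5 members did not overlap, beside 29.6% of all models. The 5 include both *RVE7* and *RVE7-like*, whose counts need not be independent.

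Per kb of cDNA, *RVE4* and *RVE7* were the most abundant members. With DEX in *RVE8:GR*, *RVE7* stood at 24.0 ± 2.76 CPM per kb (SD, n = 3) and *RVE4* at 19.7 ± 1.50, with overlapping ranges. In the other groups *RVE4* was above *RVE7* without overlap, at 22.4 ± 1.03 against 16.7 ± 0.892 in *RVE8:GR* + mock, 31.0 ± 3.30 against 22.1 ± 2.87 in *rve8* + DEX and 26.0 ± 1.35 against 17.5 ± 0.478 in *rve8* + mock. How the counts split between *RVE7* and *RVE7-like* is uncertain, so the order of *RVE4* and *RVE7* holds only for the counts as deposited. *RVE7-like* took rank 3 in each group, at 7.21 to 11.1 CPM per kb. Its rank depends on the annotated cDNA, which ends with the shared part, and per kb of coding sequence it was at rank 6 in *RVE8:GR* + mock and rank 5 in *rve8* + mock.

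The middle of the order was crowded. *RVE5* and *RVE6* overlapped in every group, at 4.57 to 6.54 CPM per kb as group means, and in *RVE8:GR* + mock *RVE8* (5.62 ± 0.457) overlapped with *RVE6*. *RVE2* was at 3.29 to 5.31 CPM per kb and *RVE1* at 1.91 to 4.71, and these neighbours overlapped in *rve8* + DEX. The lowest member was *RVE3* in *RVE8:GR*, at 0.467 ± 0.182 after DEX and 0.460 ± 0.283 after mock, and *RVE8* in *rve8*, at 0.623 ± 0.231 after DEX and 0.707 ± 0.509 after mock. In *rve8* + mock *RVE3* and *RVE8* overlapped.

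**Figure D3:**
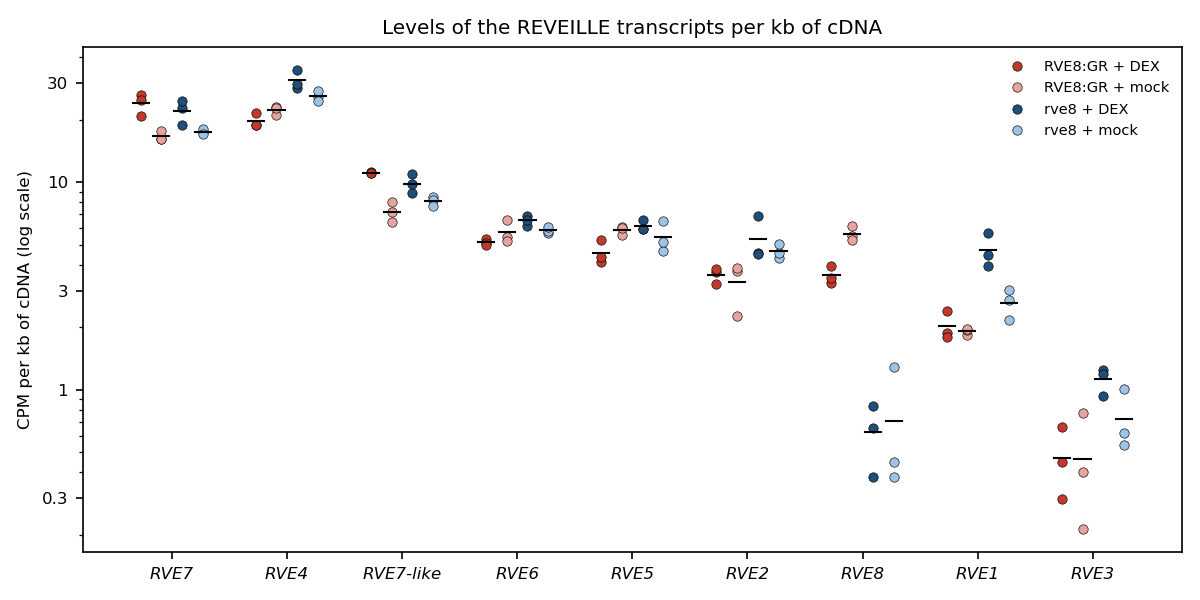
Level of each member in CPM per kb of cDNA on a log scale, with 1 point for each library, coloured by group, and a line at the mean of 3. *RVE7* and *RVE4* lie above 15 in every group, and *RVE8* is the member that moves most between the lines.

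Summed over the 9 members, the level was 74.2 ± 3.06 CPM per kb with DEX and 69.2 ± 2.93 with mock in *RVE8:GR*, and 87.5 ± 7.84 with DEX and 71.7 ± 1.75 with mock in *rve8*. The lowest *rve8* + DEX library, at 81.1, was above every library of the other groups. The *rve8* + DEX libraries are also those with the lower root marker sum within *rve8* (1467 to 1716 CPM), and its part in the family sum was not tested. The clade of *RVE1*, *RVE2*, *RVE7* and *RVE7-like* made up 54.9% ± 1.98 of the sum with DEX and 42.0% ± 1.29 with mock in *RVE8:GR*, and 48.0% ± 2.28 and 46.0% ± 1.90 in *rve8*. The *RVE8:GR* groups did not overlap, and those of *rve8* did. The shares move with the members that were called, so no test was made of them.

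**Figure D4:**
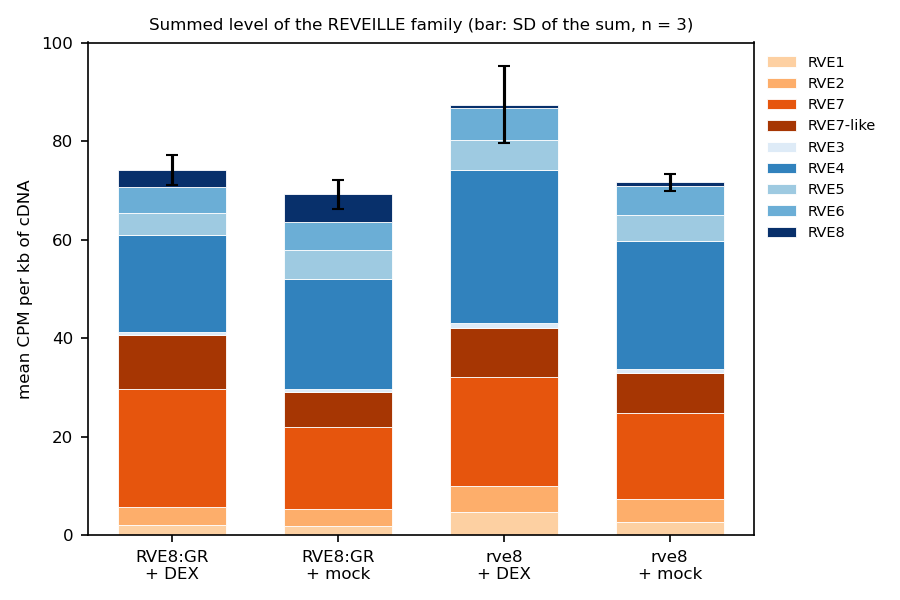
Mean level of each member in CPM per kb of cDNA, stacked by group, with the *RVE1* clade in orange and brown and the *RVE8* clade in blue. Black bars are the SD of the summed level (n = 3), and the sum is highest in *rve8* + DEX, at 87.5.

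Genes that work with or against RVE proteins were taken from a list of 22, of which 20 could be tested. The list was chosen with earlier results of these data known. It holds genes that the study named as RVE8 targets from these same libraries, among them *PRR5*, *TOC1*, *GI*, *CCA1* and *LHY*. The counts are therefore given as a description, each beside the share of all models called in edgeR. With DEX in *RVE8:GR* 7 of the listed genes rose and 2 fell, beside 2.07% and 1.36% of all models. Between the lines after DEX 6 were higher and 7 lower in *RVE8:GR*, beside 1.89% and 2.32%. With DEX in *rve8* 5 rose and 0 fell in edgeR or DESeq2, beside 3.96% and 1.57%, and none was lower at an unadjusted p under 0.05. After mock 2 were higher and 2 lower in *RVE8:GR*, beside 1.31% and 0.416%. Higher there, without DEX, were *PRR5* (0.60 ± 0.0940, edgeR adjusted p = 0.00063) and *GI* (0.28 ± 0.0601, edgeR adjusted p = 0.00825). *CCA1* and *LHY* were lower. In the difference between the responses 2 were positive and 5 negative, beside 0.24% and 0.947%.

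The repressors *CCA1* and *LHY* differed in the same comparisons as *RVE1*. *CCA1* was 16.7, 16.1 and 15.6 CPM in *RVE8:GR* + DEX and 45.6, 62.5 and 50.2 CPM in *rve8* + DEX, and *LHY* was 2.62, 2.50 and 2.23 against 8.35, 13.6 and 10.5 CPM. Between the lines after DEX *CCA1* was lower in *RVE8:GR* by -1.71 ± 0.103 (log2) and *LHY* by -2.13 ± 0.193. Both rose with DEX in *rve8*, *CCA1* by 0.88 ± 0.0989 and *LHY* by 0.72 ± 0.175, with edgeR adjusted p under the threshold in each case. Both were also lower in *RVE8:GR* after mock, *CCA1* by -0.54 ± 0.104 and *LHY* at 3.25, 3.47 and 3.09 CPM against 5.35, 6.23 and 8.06 CPM, a comparison in which *RVE1* and *RVE4* were not called.

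The LNK proteins, coactivators that bind RVE4 and RVE8, gave the same direction. All 4 *LNK* genes were lower in *RVE8:GR* than in *rve8* after DEX, from -0.51 ± 0.0663 for *LNK1* to -1.40 ± 0.127 for *LNK3*, and all 4 passed. With DEX in *rve8* all 4 were higher, and *LNK1* (0.33 ± 0.0664) and *LNK2* (0.43 ± 0.0817) were called (edgeR adjusted p = 0.00223 and 0.00149). Between the lines after mock none passed, from 0.04 ± 0.0668 for *LNK1* to -0.38 ± 0.0886 for *LNK4*. With DEX within *RVE8:GR* the DEX and mock libraries of each *LNK* gene did not overlap, beside 24.0% of all models, and *LNK3* fell (-0.76 ± 0.131). *LNK4* was at -0.38 ± 0.0907, just above the threshold (edgeR adjusted p = 0.0103), *LNK1* at -0.22 ± 0.0666 (edgeR adjusted p = 0.0457) and *LNK2* at -0.13 ± 0.0824 (edgeR adjusted p = 0.455). Among the pseudo-response regulators, repressors of morning genes, *PRR5* (1.16 ± 0.0889), *TOC1* (0.64 ± 0.0683) and *PRR7* (0.38 ± 0.0619) rose with DEX in *RVE8:GR* and *PRR9* fell (-0.96 ± 0.116), though 33.7% of the *PRR9* stretches also occur in another cDNA. *PRR7* also rose in *rve8* (0.39 ± 0.0623). The evening genes *GI*, *LUX*, *ELF3* and *ELF4* rose with DEX in *RVE8:GR*, by 0.28 to 0.62, and *BOA* did not pass. In *rve8* the DEX libraries of *PRR5* (0.20), *TOC1* (0.25), *GI* (0.23) and *ELF3* (0.23) also lay above the mock libraries. None of these passed there (edgeR adjusted p = 0.196, 0.0205, 0.0156 and 0.0225), and 29.6% of all models did not overlap in that comparison. Of the genes that rose in *RVE8:GR*, only *PRR5* and *ELF4* passed for the difference between the responses. Of the 6 genes reported as outputs of single RVE proteins, 4 could be tested (*PORA*, *YUC8*, *GA3OX2*, *ERF53*), and 0 were called in any comparison by edgeR or DESeq2, with 1 unadjusted edgeR p under 0.05 over the 5 comparisons.

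The transcripts most like a called member over the 12 libraries were found by Pearson's r of log2 CPM among all models that passed the filter. The libraries fall into 4 groups and share depth and composition, so r is given as a description. *RVE1* was nearest to AT2G15020 (r = 0.967), *RCA*, which encodes Rubisco activase (0.965), and *NPQ4*, which encodes a photosystem II protein of photoprotection (0.964). *RVE4* was nearest to AT1G64500 (0.971), AT1G44000 (0.965) and *BMY3*, a beta-amylase gene (0.964). *RVE7* was nearest to *F2KP* (0.954) and *RVE7-like* to *ATG8E*, an autophagy gene (0.953), each leaving its near copy out of the search. *RVE8* was nearest to *PORB*, a chlorophyll synthesis gene (0.952).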

How the data were processed

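RNA of whole seedlings was measured in 12 strand-specific libraries, 3 for each of 4 groups, sequenced as 50-base single-end reads in 2 lanes. The authors dropped low-quality reads (FASTX-toolkit), trimmed adapters, split the libraries by barcode, aligned reads with BWA to representative TAIR 10 cDNA models, merged lanes with Samtools and counted reads on the reverse strand. The submitters' processing notes also name CASAVA 1.8. The authors deposited raw counts per model in 1 table without normalization or coordinates, and how reads matching several models were counted is not given in the sources used here. Each column was matched to a labelled sample. Its 33457 empty cells were read as counts of 0. Samples were grouped by the labels, which describe the 3 libraries of a group as biological replicates.

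Of the 26245 models, 24858 carry an identical name in TAIR10.1, 19 could be joined through their locus and 1368 stayed without a partner. The authors' models and TAIR10.1 were joined only by name, and all positions and sequences are from TAIR10.1.

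Counts were tested with edgeR 4.0.16 in R 4.3.3 (robust quasi-likelihood, TMM factors, at least 1 CPM in at least 3 libraries, Benjamini-Hochberg over all 19961 models, threshold 0.01), with the 4 groups in 1 fit without covariates. The standard error was derived from the F statistic. The study used edgeR's exact test, which was run as an alternative. The code was tested on simulated data for DEX versus mock in *RVE8:GR*, with 200 genes changed by 1 on the log2 scale among 19807. Of the 200, 94.5% were recovered, with 5 false calls. The changed genes were drawn from models with a mean of at least 5 CPM. The share recovered therefore does not cover smaller changes or lower models, such as *RVE1*, *RVE2*, *RVE3* and *RVE8* (medians of 4.41, 4.00, 0.859 and 3.62 CPM). Members, related genes and alternatives were chosen with earlier results of these data known. All 9 members are named by locus, the other genes of the pathway where past the threshold, and for each called member the 3 models with the highest r (log2 CPM, prior count 2), of which the first ones are given. Totals were 15975840 to 21713130 counts, and replicates of a group differed by 4.06 to 10.5 times the sampling noise (chi-square per degree of freedom), so none was counted as a repeat. A permutation test of 3 libraries against 3 cannot go below 0.1.

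The alternatives were the exact test of edgeR (prior degrees of freedom 50), DESeq2 1.42.0, no TMM factors, no filter, at least 10 counts in every library, a fit of the compared groups alone, a block for the replicate number, an adjusted p under 0.05, *RVE7* and *RVE7-like* summed, coding length for levels, and leaving out each library. Python 3.11.15, Biopython 1.88, pandas 2.3.3 and matplotlib 3.10.9 were used. The study's qRT-PCR, luciferase and binding data were not used here.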

Additional observations from a re-analysis of the deposited data

Results flagged for a closer look

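The DEX response of *RVE8:GR* minus that of *rve8*, tested with edgeR as an interaction over all 12 libraries, passed the threshold for 7 genes that work with or against the RVE proteins, and for 0 of the 9 members in edgeR or DESeq2 (4 members had an unadjusted edgeR p under 0.05). It was -1.17 (log2) for *CCA1*, -1.38 for *PRR9*, -0.55 for *LNK1*, -0.56 for *LNK2* and -1.16 for *LNK3*. It was positive for *PRR5* (0.97) and *ELF4* (0.68). The edgeR adjusted p of *LNK2* (0.0092) and *ELF4* (0.00903) lay just under the threshold of 0.01, and 1.19% of all models passed it. The *PRR9* model shares 33.7% of its 50-base stretches with another cDNA, so its counts are uncertain.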

How the results depend on the processing

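For the members, 895 of 920 values under the alternatives kept their direction and their side of the threshold. Part of this agreement was fixed in advance. The setting at 0.05 reused the main fit, so no direction could change there. The summed setting gave *RVE7* and *RVE7-like* the same values. The calls of *RVE8*, *RVE1* and *RVE4* between the lines after DEX, and of *RVE8* after mock, kept theirs under every alternative run, and the call of *RVE1* with DEX in *rve8* and those of *RVE7* and *RVE7-like* in *RVE8:GR* were each lost without single libraries, as given above. At an adjusted p under 0.05 the members called were 3 with DEX in *rve8* (adding *RVE4* and *RVE7*), beside 12.4% of all models. In the difference between responses 1 was called at 0.05 (*RVE4*), beside 2.81% of all models. *RVE7* passed with DEX in *rve8* without *rve8* + DEX replicate 3 (0.43, edgeR adjusted p = 0.00555).

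Over all models, the calls with DEX in *RVE8:GR* were 685, against 1083 by edgeR's exact test and 1345 at 0.05. Between the lines after DEX they were 842, against 1458 at 0.05, and with DEX in *rve8* 1103, against 2476 at 0.05. Between the lines after mock they were 344, against 782 by the exact test, 671 by DESeq2, 215 with only the groups compared and 1069 at 0.05. For the difference between responses they were 237, against 438 by DESeq2 and 560 at 0.05. The cause was not tested. Without TMM factors the share of calls that were higher went from 44.9% to 51.3% between the lines after DEX, from 71.6% to 39.3% with DEX in *rve8*, from 75.9% to 59.3% between the lines after mock and from 20.3% to 35.1% for the difference between responses, and the median of all models moved by at most 0.08 (fell by 0.08 with DEX in *rve8*), while no member changed direction.

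Leaving out each library gave 377 to 823 calls with DEX in *RVE8:GR*, 529 to 952 between the lines after DEX, 512 to 1403 with DEX in *rve8*, 138 to 620 between the lines after mock and 126 to 317 for the difference between responses. Members called ranged from 1 to 2 with DEX in *RVE8:GR* and from 0 to 2 with DEX in *rve8*. Directions turned only for members that were not called. With DEX in *RVE8:GR* the ranges were -0.057 to 0.15 for *RVE1*, -0.086 to 0.26 for *RVE2* and -0.30 to 0.60 for *RVE3*. They were -0.037 to 0.30 for *RVE2* and -0.50 to 0.56 for *RVE8* with DEX in *rve8*, for *RVE6* between the lines after mock -0.13 to 0.030, and for *RVE2* in the difference between responses -0.27 to 0.17.

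Same-numbered libraries of different groups deviated together weakly at most (r of -0.08 to 0.21 over 18 pairs, median 0.041, 3 over 0.1). Pairs with different numbers had r of -0.22 to 0.17 (36 pairs, median -0.025, 2 over 0.1). Of 12 libraries, 6 were closest to their own number, which does not settle whether the numbers are pairs. The main fit used no pairing, and the block was run as an alternative. With the replicate number as a block the calls were 791, 912, 1251, 434 and 260 in the order above, more than without it in each comparison. All 45 values of the members kept their side of the threshold. Depth limits *RVE3* (5 to 32 counts) and *RVE8* in *rve8* (10 to 35 counts). With at least 10 counts in every library *RVE3* was not tested. The exact test and separate fits give no value for the difference between responses.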
